A study of Drosophila melanogaster with 12 samples.

Results

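Mutually exclusive exons (MXE) are neighbouring exons of which a transcript includes one or the other. In this class of splicing event, 407 events in 178 genes had a usable inclusion value, out of 10345 events in 3568 genes over all 7 event classes. Events were built from the exons of annotated Drosophila transcripts in the manner of SUPPA, a program that derives splicing events from transcript abundances. An event pairs transcripts that share an upstream and a downstream exon boundary and differ in the single exon between them. PSI (percent spliced in, given here from 0 to 1) is the share of the TPM (transcript abundance scaled to a fixed sum per library) of both forms that belongs to the form with the 5′ exon, the first of the pair as transcribed. Every event with a PSI in at least 2 libraries of each group was kept, whatever its value. Of 2188 annotated MXE events in 233 genes, the others did not meet this minimum.

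RNA came from whole larvae of the last larval stage (L3), 3 larvae per library, in 12 libraries. The groups were clamp null males, clamp null females, control males and control females, with 3 libraries each. The clamp null larvae carry the clamp2 allele in a yw background, and the controls are yw. CLAMP is a zinc-finger protein that binds GA-rich DNA and takes part in dosage compensation of the male X chromosome, and the comparisons ask whether its absence goes with other exon choices in each sex, and whether males and females choose differently. The sex of a library was read from its title, because a separate sex field gives the control libraries as female and the clamp null libraries as male throughout. Nothing in the labels tells separate cultures apart, so p-values measure the spread between these libraries only.

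In insects, many mutually exclusive exons are tandem copies of one ancestral exon, so that the choice exchanges a segment of the protein for a related one and leaves the rest of the reading frame in place. Classic examples in Drosophila are Dscam1, a cell surface receptor with large exon clusters, Mhc, the single muscle myosin heavy chain gene, and channel genes such as para and slo. All of them were among the members. Exon sequences are not shown, and positions are those of assembly BDGP6.

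The targeted gene and the makeup of the larvae were checked first. Clamp had 21.4 to 22.8 TPM in clamp null and 43.4 to 59.2 TPM in control males, and 16.2 to 20.0 TPM in clamp null and 36.3 to 45.1 TPM in control females. It was lower without overlap in each sex (limma on log2(TPM + 1), adjusted p = 0.000332 in males and 0.00276 in females). The summed level of 11 late L3 salivary gland and fat body genes was 2414 to 14540 TPM in clamp null libraries and 95490 to 172900 TPM in control libraries, with up to 4 of the genes at 0 in a clamp null library and none at 0 in the controls. The sum of 7 muscle genes was 27000 to 35410 TPM in clamp null libraries and 4967 to 11150 TPM in control libraries. Neuron markers summed to 26.4 to 53.8 TPM in clamp null and 42.4 to 90.3 TPM in control libraries, low in all groups. The 18 testis genes summed to 1435 to 2276 TPM in control males, yet to 10.3 and 17.3 TPM in clamp null males 4 and 5 against 311.8 TPM in clamp null male 6, and to at most 38.4 TPM in any female library. Clamp null males 4 and 5 thus carry a male label with testis genes at the level of the female libraries, and male results that change without them are given without them as well. In whole larvae, fewer cells of a type and less RNA per cell cannot be told apart. The titles and methods give no age within L3. An age difference between clamp null and control larvae therefore cannot be told apart from genotype. The part of these marker differences in the PSI results was not tested.

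The exon pairs were mostly protein-coding and of matched frame. Both exons lay wholly in coding sequence in 352 of 407 events (86.5%) and, taking the most abundant event of each gene, in 139 of 178 genes (78.1%). In 336 events (82.6%) no annotated transcript of the gene held both exons, and in the other 71 some transcript outside the event did. Among events with both exons coding, the lengths of the exons differed by a multiple of 3 bases in 344 of 352 (97.7%), 154 of them being of equal length. Counted per gene, the figures were 135 of 139 genes (97.1%) and 33 genes of equal length. Among events with an exon partly or wholly outside the coding sequence, the difference was a multiple of 3 in 15 of 55 (27.3%). The exons had median lengths of 131 bases (5′ exon) and 124 bases (3′ exon), and the median gap between them was 990 bases. In Ate1, CG6686 and Gs1l, named for this feature alone, the gap was under 50 bases.

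**Figure D1:**
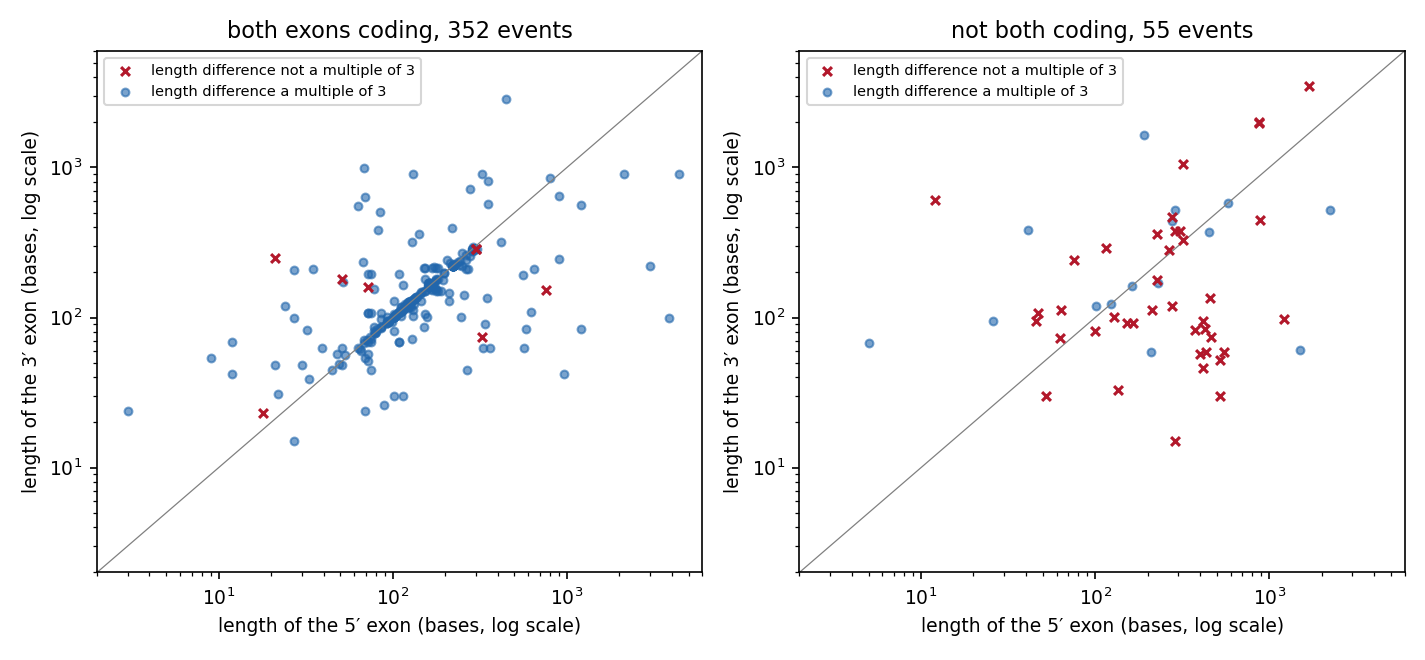
Length of the 5′ exon against length of the 3′ exon of each event in bases, both on log axes, for events with both exons coding (left) and the others (right). Of the 352 coding pairs, 344 differ by a multiple of 3 bases and 154 have equal lengths and lie on the diagonal, while 15 of the 55 other pairs differ by a multiple of 3.

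The events were unevenly spread over genes. A single event was found in 129 genes, and 49 genes had more. Dscam1 alone held 101 events (24.8%) in 4 exon sets, followed by Mhc with 20 events in 5 sets, the transporter gene MRP with 18, the microtubule-binding protein gene Patronin with 12 and the thioester protein gene Tep2 with 10. Since events of one set share transcripts, counts are given per gene wherever possible. The 178 genes lay on 2R (48 genes), 3R (38), X (30), 3L (29), 2L (29) and chromosome 4 (4).

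In most events no single exon held nearly all transcripts in every group, and most kept the same major exon, though these were not always the same events. In 299 of 407 events (73.5%) and 146 of 178 genes, mean PSI was neither at most 0.05 in all groups nor at least 0.95 in all groups. This does not show use of both exons within a library, since a group mean can come from libraries at 0 and at 1. The same exon of the pair was the more abundant in all 4 groups in 300 of 407 events (73.7%) and 120 of 178 genes (67.4%). In 84 events PSI was 0 or 1 in every library with a value. Mean PSI was at most 0.05 in all groups in 58 events and at least 0.95 in all groups in 50. The transcripts of an event had a median of 4.50 TPM, with a range of 0.147 to 3538 TPM, and 129 events lay under 1 TPM. The spread between libraries varied with this level. The median SD of PSI within a group was 0.0784 for the 129 MXE events under 1 TPM, 0.147 for the 50 events of 1 to 3 TPM and 0.189 for the 103 events of 3 to 10 TPM, against 0.0643 for the 92 events of 10 to 100 TPM and 0.00937 for the 33 events of at least 100 TPM. Events over all 7 classes had 0.177, 0.208, 0.157, 0.0778 and 0.0174 in the same ranges.

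In females, 5 events in 5 genes differed between clamp null and control larvae by the empirical test of SUPPA, which sets a difference of group means (ΔPSI) against differences between replicates of events of similar TPM and adjusts p within each gene. They lay in kkv, betaTub97EF, Actn, CRMP and verm. The share was 1.23% of the MXE events, against 1.83% of the events of all classes called. Per gene it was 2.81% of the MXE genes, against 4.2% of all genes with an event. Here and below, an MXE gene counts by its MXE events alone. The share of all genes counts a called event of any class, so these gene shares are not like for like. No MXE event passed when p was adjusted over all 10345 events (0.029% of all events did, 3 in number), the smallest such p among MXE events being 0.435. At an unadjusted p under 0.05 there were 18 events in 16 genes (4.42%, against 4.7% of all events). limma on PSI, adjusted over all events, called 5 MXE events, in Actn, CadN, MRP, betaTub97EF and kkv (1.23%, against 0.638% of all events). PSI did not overlap between the groups in 54 MXE events (13.3%, against 11.9% of all events). The share of events called by the empirical test lay below that of all classes, and those of limma and of events without overlap lay above.

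kkv encodes the chitin synthase of the epidermis and trachea, whose pair of alternative exons of 177 bases each is found across insects. The event (FBgn0001311, 3R:5380645-5380821 against 3R:5380354-5380530, minus strand, both coding, 29.2 TPM) had a PSI of 0.123, 0.123 and 0.182 in the clamp null females, against 1, 0.692 and 0.786 in the control females. All clamp null females lay below all control females, and the 3′ exon, the minor form in control females, was the major form in clamp null females. ΔPSI was -0.683 (adjusted p = 0.003 by the empirical test and 0.0239 by limma, SE 0.10). The mean PSI was 0.143 ± 0.034 in clamp null females and 0.826 ± 0.16 in control females (SD, n = 3 each). Host gene expression was higher in clamp null females (log2 fold change 0.86 ± 0.27, SE, adjusted p = 0.0365 by limma).

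betaTub97EF encodes a beta-tubulin, and its pair of 168-base coding exons (FBgn0003890, 3R:27969660-27969827 against 3R:27969383-27969550, minus strand, 57.1 TPM) had a PSI of 0.772, 0.717 and 0.769 in clamp null females, against 1, 1 and 0.980 in control females. The groups did not overlap, and the 3′ exon, absent from 2 of the control females, was found in each clamp null female. ΔPSI was -0.241 (adjusted p = 0.026 by the empirical test and 0.00236 by limma). The gene itself stood at 101 ± 34 TPM in clamp null females and 19.8 ± 5.8 TPM in control females (SD, n = 3 each).

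Actn encodes alpha-actinin, which crosslinks actin at the muscle Z-disc and is made in muscle and non-muscle forms. Its exon set held a 5′ exon in a form of 86 bases (X:2029841-2029926) and an overlapping form of 152 bases (X:2029775-2029926), each paired with a 3′ exon of 86 bases (X:2028665-2028750; FBgn0000667, minus strand). For the pair of 86-base exons (75.01 TPM), PSI was 0.979, 0.976 and 0.935 in clamp null females, against 0.556, 0.666 and 0.718 in control females. No library of one group lay within the other, with ΔPSI of 0.317 (adjusted p = 0.0475 by the empirical test and 0.0938 by limma). The limma call of Actn in females given above was thus for another event of the gene, not for this pair. Of all transcripts of the set, those with the 3′ exon made up 1.41% in clamp null females and 12.7% in control females. The muscle marker sum was also higher in each clamp null library than in any control library, as given above, and Actn expression itself was higher in clamp null females (log2 fold change 1.18 ± 0.29, SE, adjusted p = 0.012 by limma).

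CRMP encodes dihydropyrimidinase and a collapsin response mediator protein as alternative forms of one gene. Its pair (FBgn0023023, 3R:5576175-5576413 of 239 bases against 3R:5577036-5577259 of 224 bases, plus strand, 14.5 TPM) is one of those that an annotated transcript can hold together. PSI was 1, 1 and 0.852 in clamp null females, against 0.427, 0.311 and 0.309 in control females. All clamp null females were higher than all control females, with ΔPSI of 0.602 (adjusted p = 0.04 by the empirical test and 0.0595 by limma).

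verm encodes a chitin deacetylase of the cuticle and tracheal matrix. Its pair (FBgn0261341, 3L:19692721-19692851 of 131 bases against 3L:19692265-19692377 of 113 bases, minus strand, 207.8 TPM) had a PSI of 0.284, 0.396 and 0.314 in clamp null females, against 0.178, 0.0549 and 0.136 in control females. The groups did not overlap, and the 3′ exon was the major form in each library. ΔPSI was 0.208 (adjusted p = 0.024 by the empirical test), whereas limma gave an adjusted p of 0.433. Expression of verm was 374.5 ± 124 TPM in clamp null females and 92.2 ± 29 TPM in control females (SD, n = 3 each).

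The calls of Actn and CRMP lay close to the threshold. With clamp null female 4 left out, both were lost and 3 genes were called, and over the 6 such fits Actn kept its call in 3 and CRMP in 4. Their differences stayed at 0.271 to 0.352 for Actn (adjusted p of at most 0.069 by the empirical test) and 0.577 to 0.651 for CRMP (at most 0.052). kkv, betaTub97EF and verm kept theirs in 6 of 6, with ΔPSI of -0.75 to -0.596, -0.25 to -0.223 and 0.174 to 0.236.

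**Figure D2:**
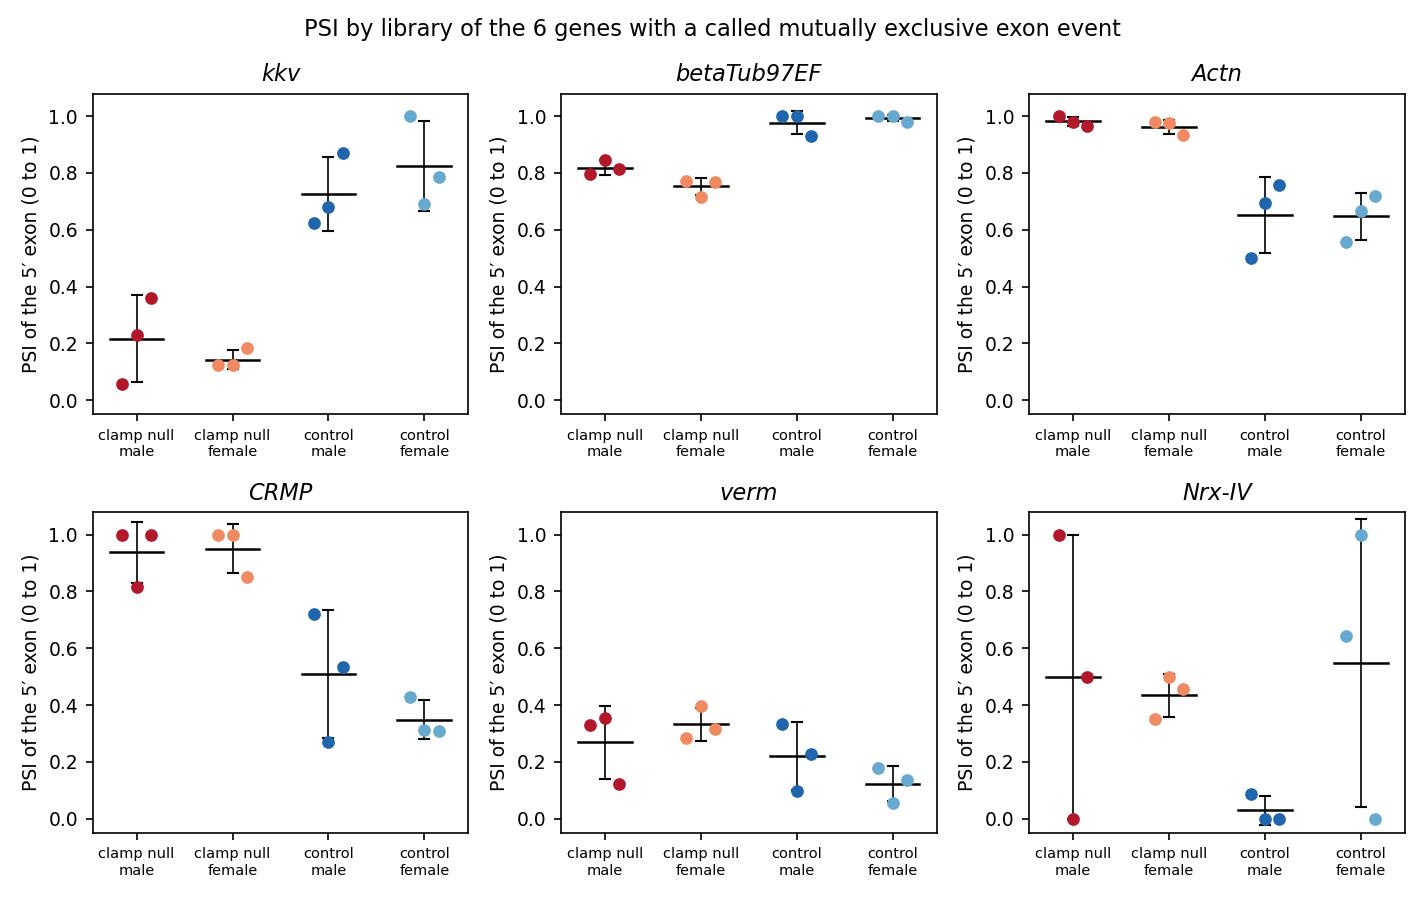
PSI of the 5′ exon (0 to 1) in each library for the 6 genes with a called event, with groups along the x axis. Points are libraries, long lines group means and error bars SD (n = 3). In kkv the clamp null libraries sit between 0.0576 and 0.361 and the control libraries between 0.622 and 1, while in Nrx-IV the libraries of control females span 0 to 1.

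In males, 1 event was called between clamp null and control larvae, in kkv (0.246% of MXE events, against 2.11% of all events, and 0.562% of MXE genes, against 5.04% of all genes). No MXE event passed with p adjusted over all events (0.029% of all events), and 11 events in 10 genes had an unadjusted p under 0.05 (2.7%, against 5.51% of all events). limma on PSI called 5 events, in Actn, Ca-alpha1D, CadN, betaTub97EF and kkv (1.23%, against 2.12% of all events). PSI did not overlap in 49 events, against 14.7% of all events. Differences of at least 0.2 in either direction were found in 90 MXE events (22.1%, against 30.4% of events of all classes). Each of these shares of events was below that of all classes, and the median absolute ΔPSI was 0.0595 for MXE events and 0.0864 over all classes. The MXE shares include the 101 events of Dscam1, of which 98 lay under 1 TPM, and shares without them are not given. By the most abundant event of each of the 178 MXE genes, the male median was 0.0757. PSI then did not overlap in 24 genes (13.5%), and 45 genes differed by at least 0.2. In females the medians over events were 0.0476 for MXE and 0.0706 over all classes, with 100 MXE events (24.6%, against 26.2%) at 0.2 or more. Per gene, the female median was 0.0561, with 31 genes (17.4%) without overlap and 45 at 0.2 or more. Per-gene values over all classes are not given.

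kkv had a PSI of 0.0576, 0.230 and 0.361 in clamp null males, against 0.622, 0.682 and 0.871 in control males. As in females, the groups did not overlap and the 3′ exon was the major form in the clamp null but not in the control libraries. ΔPSI was -0.508 (adjusted p = 0.031 by the empirical test and 0.0434 by limma). With clamp null males 4 and 5 left out, the clamp null arm is 1 library and the spread comes from the control males alone. ΔPSI was then -0.364 with an adjusted p of 0.083 by the empirical test, while CRMP, Gpat4 and Tsp26A passed. With all clamp null males and without control male 3, the adjusted p of kkv was 0.056. Host expression of kkv did not pass the test in males (log2 fold change 0.26 ± 0.27, SE, adjusted p = 0.432 by limma). 

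The other genes called in females had the following values in males. betaTub97EF had a PSI of 0.796, 0.847 and 0.813 in clamp null males, against 1, 1 and 0.932 in control males, with ΔPSI of -0.158 (adjusted p = 0.0118 by limma and unadjusted p = 0.0945 by the empirical test). The pair of 86-base exons of Actn had 1, 0.979 and 0.966 in clamp null males, against 0.502, 0.695 and 0.757 in control males, with ΔPSI of 0.330 (adjusted p = 0.0364 by limma and 0.07 by the empirical test). Both genes were without overlap in males too. CRMP had 1, 0.815 and 1 in clamp null males, against 0.722, 0.271 and 0.533 in control males, with ΔPSI of 0.430 (adjusted p = 0.092 by the empirical test and 0.101 by limma). verm had 0.331, 0.353 and 0.121 in clamp null males, against 0.334, 0.0970 and 0.229 in control males, and here the groups overlapped (adjusted p = 0.305 by the empirical test). For none of the 5 genes was the effect of genotype shown to differ by sex, with adjusted p of the interaction by limma of 0.76 for betaTub97EF, 0.883 for kkv, CRMP and verm and 1 for the Actn pair.

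The female and male comparisons share no library, so their values can be set side by side. PSI did not overlap in either sex in 16 MXE events of 14 genes, which is 29.6% of the female and 32.7% of the male list of events without overlap. These are 3.93% of MXE events, while 365 events of all classes, 3.53%, had no overlap in either sex. The sign was the same in both sexes in 15 of the 16 (93.8%, against 91.8% over all classes). The 13 genes were 14-3-3zeta and Actn with 2 events each, and Atpalpha, CG42613, CRMP, CadN, Nmda1, Ogdh, Tm1, Zasp52, betaTub97EF, kkv and lqf. Of the 15 events, 12 had both exons coding. The exception was slo, at 0.147 TPM. Among the 131 genes whose most abundant event had at least 3 TPM, 68 had the same sign in both sexes and 21 a difference of 0 in 1 sex. In 9 of the 131, ΔPSI was at least 0.2 with the same sign in both sexes, and in none of them was it at least 0.2 with opposite signs (count 0). limma called 0 MXE genes for the interaction of sex and genotype (background 0.474% of all events). At an unadjusted p under 0.05 there were 25 events in 19 genes, without a share of all events to set beside them. No second test of the interaction was run.

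**Figure D3:**
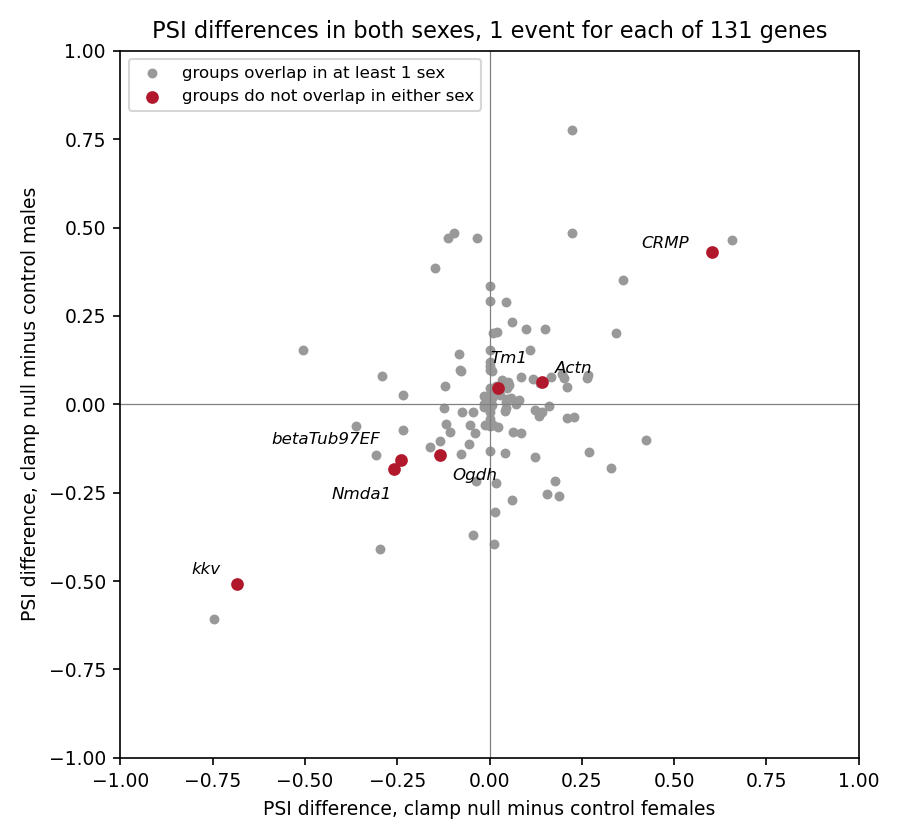
PSI difference of clamp null minus control females (x axis) against that of clamp null minus control males (y axis), for the most abundant event of each of the 131 genes with at least 3 TPM. Red points with names do not overlap between genotypes in either sex; they lie in the lower left and upper right quadrants, with kkv at -0.683 and -0.508 and CRMP at 0.602 and 0.430.

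Ogdh, Nmda1 and LpR2 were picked out after their values were seen. Ogdh, encoding the E1 subunit of the oxoglutarate dehydrogenase complex of the citric acid cycle, had a PSI of 0.499, 0.422 and 0.444 in clamp null males and 0.507, 0.403 and 0.489 in clamp null females, against 0.592, 0.627 and 0.579 in control males and 0.610, 0.616 and 0.576 in control females (3L:16960538-16960667 against 3L:16961500-16961602, 111.4 TPM). The 5′ exon of 130 bases had the larger share in all 6 control libraries and in 1 of 6 clamp null libraries, and the groups did not overlap. ΔPSI was -0.135 in females (adjusted p = 0.142 by the empirical test) and -0.144 in males (0.315, and 0.0533 by limma). Nmda1 had 0.815, 0.860 and 0.747 in clamp null males and 0.632, 0.810 and 0.553 in clamp null females, against 1, 1 and 0.975 in control males and 0.976, 0.902 and 0.890 in control females, and did not pass within its gene in either sex (adjusted p = 0.168 and 0.219 by the empirical test). LpR2, a lipophorin receptor gene, had 0.662, 0.735 and 0.345 in clamp null males and 0.694, 0.876 and 0.644 in clamp null females, against 0, 0 and 0.347 in control males and 0.0427, 0.201 and 0 in control females. Its groups did not overlap in females (ΔPSI 0.657, adjusted p = 0.0675 by the empirical test) and overlapped in males, where clamp null male 6 lay just below control male 3.

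Between control males and control females, 1 event was called, in Nrx-IV, which encodes a septate junction protein (0.246% of MXE events, against 1.66% of all events, and 0.562% of MXE genes, against 4.04% of all genes). None passed with p adjusted over all events (0.00967% of all events), and 4 events in 4 genes had an unadjusted p under 0.05 (0.983%, against 3.91%). The pair of 197-base exons (FBgn0013997, 3L:12151211-12151407 against 3L:12151820-12152016, plus strand, 8.23 TPM) had a PSI of 0.0872, 0 and 0 in control males, against 0.642, 1 and 0 in control females. The groups overlapped, since control female 3 was at 0 as well. ΔPSI was -0.518 (adjusted p = 0.0495 by the empirical test and 0.793 by limma), and the call was lost when control male 2, control male 3, control female 1 or control female 2 was left out. limma called 3 events, in Actn, MESK2 and MRP (0.737%, against 1.1% of all events). In Actn this was the pair with the 152-base exon (155.5 TPM), at 0.896, 0.943 and 0.944 in control males, against 0.808, 0.850 and 0.846 in control females (ΔPSI 0.0931, adjusted p = 0.0375 by limma). The limma calls of MRP, MESK2 and, in clamp null against control males, Ca-alpha1D came from fits in which at least 1 library had no PSI. PSI did not overlap in 38 MXE events (9.34%, against 10.5% of all events). The testis sum, given above, was at least 1435 TPM in control males and at most 38.4 TPM in control females, and its part in these values was not tested.

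The sexes were also apart, short of a call, in the control libraries of gish and Pfk. gish, a casein kinase gene picked after its values were seen, had 0.701, 0.879 and 0.812 in control males, against 0.529, 0.343 and 0 in control females (3R:16293987-16294153 against 3R:16295669-16295820, 14.8 TPM), with ΔPSI of 0.507 and an adjusted p of 0.135 by the empirical test. Pfk, encoding phosphofructokinase of glycolysis, had 0.715, 0.570 and 0.549 in control males, against 0.298, 0.458 and 0.468 in control females for a pair of 109-base exons (2R:10113543-10113651 against 2R:10114126-10114234, 91.4 TPM), with ΔPSI of 0.203 and an adjusted p of 0.167. Neither overlapped between the sexes in controls.

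Between clamp null males and clamp null females, 0 MXE events were called by the empirical test (background 0.493% of events and 1.26% of genes, and 0.0% of events with p adjusted over all events), 0 by limma (background 0.222%), and 3 events in 2 genes had an unadjusted p under 0.05 (background 1.57%). PSI did not overlap in 21 events (5.16%, against 5.82% of all events), and 91 events (22.4%, against 23.4%) differed by at least 0.2. Among controls, 96 events (23.6%, against 23.7%) differed by at least 0.2. Without clamp null males 4 and 5, the comparison sets 1 male library against 3 female ones and takes its spread from the females alone. verm then passed, at 0.121 in clamp null male 6 and 0.284 to 0.396 in the clamp null females.

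Muscle genes carried many of the most abundant events, led by up (3538 TPM) and Tm1 (2549 TPM). Of 19 contractile genes listed, 8 held an MXE event (Mhc, wupA, up, Tm1, bt, Zasp52, Zasp66 and Actn), and each had at least 3 TPM. Apart from Actn in females, 0 of the 8 were called by the empirical test in any comparison. By that test, 2 had an unadjusted p under 0.05 in males, 2 in females with Actn and 1 in each comparison of the sexes. limma called Actn alone. Of all genes, 5.04% had a called event of any class in males, 4.2% in females, 4.04% between control sexes and 1.26% between clamp null sexes. A list of 8 genes is too small to be told from this background. The median absolute ΔPSI of the most abundant event of each gene was 0.0256 in males and 0.0196 in females, against 0.0757 and 0.0561 for the 178 MXE genes. These sets were not matched for TPM, and the spread of PSI between libraries was smallest in events of at least 100 TPM, as given above. In different fly muscles, exon choice in Mhc sets segments of the myosin head, such as the relay and the converter, and the hinge of the rod. In the second set of 4 exons of 104 bases, exon 1 had 99.1% of the transcripts in clamp null males, 99.3% in clamp null females, then 99.3% in control males and 98.3% in control females. In the third set of 3 exons of 171 bases, exon 2 had 97.5%, 99.3%, 92.3% and 98.4% in the same order of groups. In the fourth set of 5 exons of 118 bases, exon 4 had 73.2%, 75.6%, 78.0% and 69.3%, and exon 5 had 19.9%, 20.3%, 18.5% and 24.1%. The dominant exon of each of these sets was thus the same in all 4 groups.

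The first Mhc set (2L:16769147-16769290 against 2L:16769459-16769602, 144 bases each, 1062 TPM) was mixed in every library. PSI was 0.392, 0.609 and 0.264 in clamp null males and 0.476, 0.572 and 0.553 in clamp null females, against 0.665, 0.384 and 0.460 in control males and 0.763, 0.533 and 0.425 in control females. All 4 groups overlapped (adjusted p = 0.444 in males and 0.404 in females by the empirical test). wupA, encoding troponin I, had a set of 4 exons of 101 bases, of which exon 1 had 91.3% in clamp null males, 92.5% in clamp null females, then 92.0% in control males and 94.99% in control females, and exon 2 had 6.86%, 5.74%, 6.24% and 4.26%. In up, encoding troponin T, the pair of 79-base exons (3538 TPM) had a PSI of at most 0.000334 in each library, so that the 3′ exon was used almost alone. Tm1, encoding a tropomyosin, had 0.993, 0.992 and 0.987 in clamp null males and 0.991, 0.996 and 0.990 in clamp null females, against 0.930, 0.945 and 0.962 in control males and 0.941, 0.978 and 0.986 in control females (3R:15301011-15301073 against 3R:15301624-15301686, 63 bases each, 2549 TPM). The groups did not overlap in either sex, and ΔPSI was 0.0447 in males and 0.0237 in females (adjusted p = 0.287 and 0.401 by the empirical test).

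**Figure D4:**
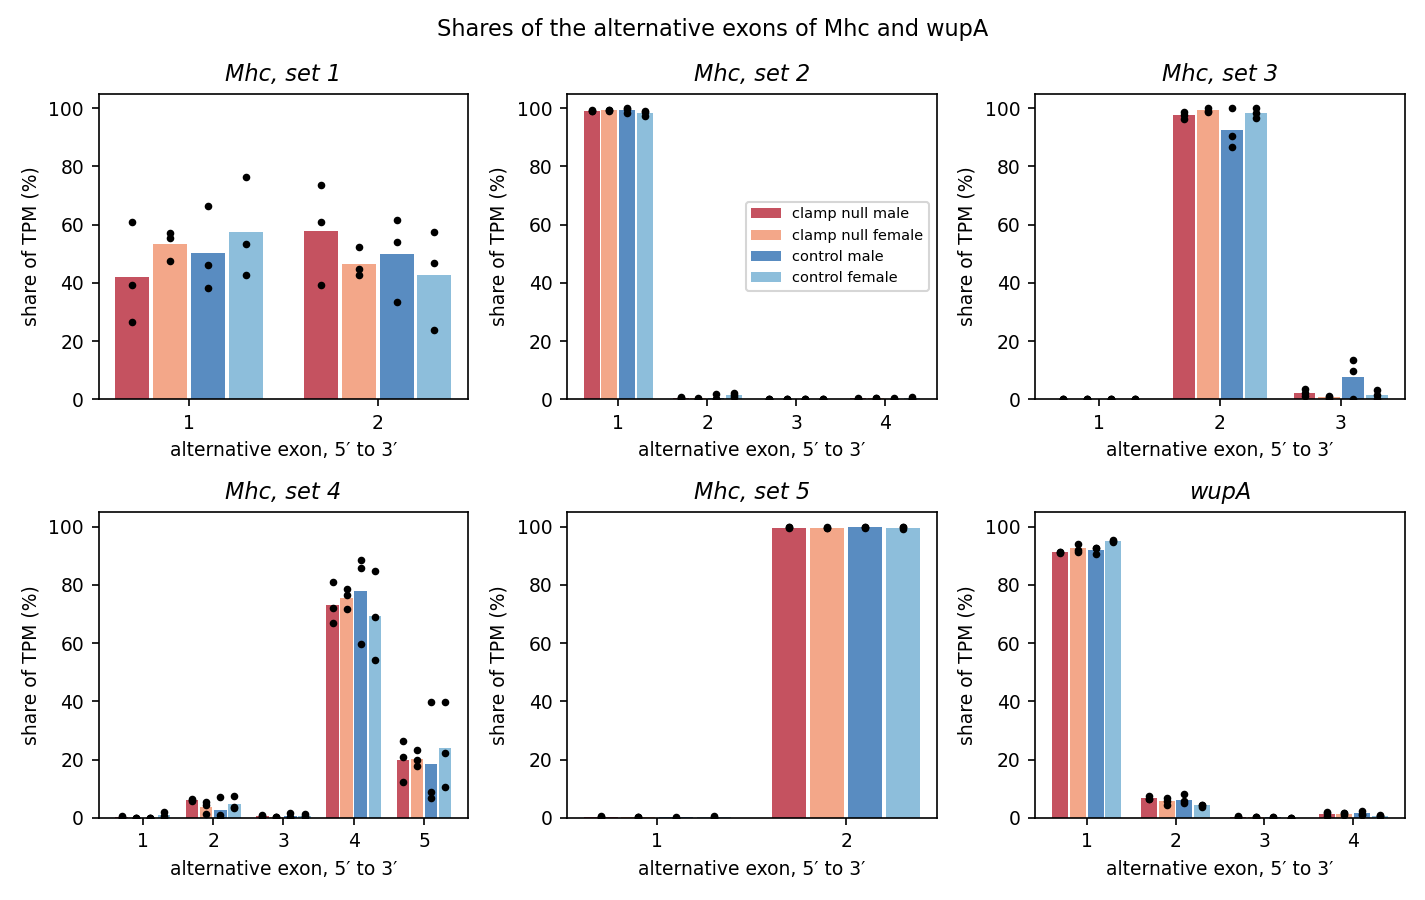
Share of transcripts in percent for each alternative exon of the 5 exon sets of Mhc and the set of wupA, numbered 5′ to 3′ along the x axis. Bars are group means and points are libraries. One exon has at least 92.3% in each group in Mhc sets 2, 3 and 5, while set 1 is split between its exons and the bars of the groups overlap in their libraries.

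Ion channels and transporters, known for MXE that alter gating, held an event in 12 of 29 listed genes, but only Atpalpha and RyR had at least 3 TPM. para, cac, slo, Rdl, Sh, SK, GluClalpha, Ca-beta, Ca-alpha1D and nAChRalpha6 had 0.187 to 1.96 TPM in their most abundant event, where PSI of single libraries often sat at 0 or 1, and 0 of the 12 were called by the empirical test in any comparison, against the 1.26% to 5.04% of all genes just given, a number of genes too small to tell the list from the background. Atpalpha had an unadjusted p under 0.05 in both sexes, and limma called Ca-alpha1D in males. Atpalpha encodes the alpha subunit of the sodium-potassium pump. Its first exon set (FBgn0002921, 3R:20960726-20960825 against 3R:20962215-20962295, only one of the exons coding, 24.2 TPM) had a PSI of 0.775, 0.314 and 0.476 in clamp null males and 1, 1 and 0.48 in clamp null females, against 0.135, 0.113 and 0.167 in control males and 0.251, 0.0826 and 0.0619 in control females. The groups did not overlap in either sex, with ΔPSI of 0.384 in males and 0.695 in females, but with 9 events in the gene neither passed (adjusted p = 0.266 and 0.09 by the empirical test). In the most abundant pair of its coding set, with exons of 95 bases (63.9 TPM), PSI was 0.766 to 0.909 in clamp null males, 0.857 to 0.935 in clamp null females, then 0.895 to 0.936 in control males and 0.824 to 0.949 in control females, with overlap throughout.

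Among synapse and signalling genes, 7 of 21 held an event and 14-3-3zeta and unc-13 had at least 3 TPM. 14-3-3zeta encodes an adaptor that binds phosphorylated proteins, with a set of 3 coding exons of 164 bases. For its exon 1 against exon 3 (2R:10105941-10106104 against 2R:10106634-10106797, 147.5 TPM), PSI was 0.759, 0.697 and 0.726 in clamp null males and 0.624, 0.707 and 0.729 in clamp null females, against 0.833, 0.866 and 0.764 in control males and 0.803, 0.786 and 0.802 in control females. The groups did not overlap in either sex, with ΔPSI of -0.0938 in males and -0.111 in females (adjusted p = 0.389 and 0.314 by the empirical test). In the priming factor gene unc-13, PSI was 0.88 to 0.991 in all libraries. Of 21 adhesion and guidance genes, 5 held an event. The integrin gene mys (48.4 TPM) and the spectraplakin gene shot (25.9 TPM) used the 5′ exon predominantly, with PSI of 0.685 to 1 and 0.863 to 0.993. CadN, the neural cadherin, stood at 0.587 TPM, and its pair at 2L:17655669 had a PSI of 1 in all 6 clamp null libraries, against 0, 0.185 and 0 in control males and 0.365, 0 and 0 in control females. limma gave adjusted p = 0.00135 in males and 0.00383 in females, and the empirical test 0.137 and 0.164. Of 21 genes of transcription, chromatin and RNA, heph and Sxl held events (9.39 and 8.17 TPM), and of 15 metabolic genes Pfk did, with 0 calls in any comparison for these 3 genes.

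Dscam1, the most complex member, was expressed too low to compare most of its exons. Of its 101 events, 98 had under 1 TPM and 41 were at 0 or 1 in every library with a value. From 5′ to 3′ its first 3 sets held 12, 48 and 33 alternative exons, which encode parts of immunoglobulin domains, and 1, 25 and 13 of them were listed at 0 TPM in every library, while 9, 12 and 12 reached a mean share of 5% in at least 1 group. The last pair, which encodes alternative transmembrane segments (2R:7326617-7326784 of 168 bases against 2R:7326152-7326364 of 213 bases, 2.39 TPM), had a PSI of 0.595, 0.453 and 0.395 in clamp null males and 0.320, 0.757 and 0.414 in clamp null females, against 0.367, 0.523 and 0.652 in control males and 0, 0.580 and 0 in control females. The groups overlapped in both sexes, and 0 events of Dscam1 were called by the empirical test in any comparison, with 0 at an unadjusted p under 0.05.

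Total expression of the host genes was compared as well. Of 163 host genes with at least 1 TPM, 36 (22.1%) were higher and 9 (5.52%) lower in clamp null than in control females by limma on log2(TPM + 1), against 9.8% and 15.6% of all 11145 genes tested. In males 26 were higher and 39 (23.9%) lower, against 11.3% and 45.8% of all genes. Without clamp null males 4 and 5, which leaves 1 clamp null male and assumes that it varies like the other groups, 18 were higher and 29 lower, against 8.08% and 32.5% of all genes. Control males had 11 host genes higher and 1 lower than control females, against 23.2% and 1.56% of all genes. Between clamp null males and females 0 were higher and 0 lower, against 0.0% and 0.0179% of all genes. The median log2 fold change of the host genes was -0.33 in males and 0.21 in females, against -0.75 and -0.20 over all genes. With a median-of-ratios scaling, these were 0.20 and 0.45 for hosts and -0.24 and -0.02 for all genes. The host calls were then 47 higher and 19 lower in males and 50 higher and 6 lower in females. The shares of all genes called under this scaling are not given, so these host calls cannot be set against a background.

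Of the 8 muscle host genes, 7 were higher in clamp null males and females alike. Mhc stood at 1031, 1820 and 1710 TPM in clamp null males, against 184.3, 197.8 and 255.7 TPM in control males, and at 3455, 1363 and 1527 TPM in clamp null females, against 211.7, 269 and 719.1 TPM in control females. Neither sex showed overlap (log2 fold change 2.80 in males and 2.48 in females, SE 0.45, adjusted p = 0.000304 and 0.00234 by limma). up followed with 2.09 and 1.97, Zasp52 with 2.19 and 2.27, bt with 2.04 and 2.47, wupA with 1.83 and 1.54, Tm1 with 1.55 and 0.99, and Actn with 1.14 and 1.18, the male value first. Zasp66 did not pass (-0.47 and 0.24). Without clamp null males 4 and 5, the same count of 7 was higher in males, and Zasp66 was lower (adjusted p = 0.0377 by limma). Outside the lists, chosen after their values were seen, large increases in both sexes were those of the glycogenin gene Gyg (2.55 and 2.62), the obscurin gene Obsc (2.53 and 2.87), which the muscle list held under the older symbol Unc-89 and did not match, and betaTub97EF (3.00 and 2.28). Gyg had 1.58 in males without clamp null males 4 and 5. Among those lower in males were the RNA-binding protein genes sm (-3.66), Syp (-2.79) and heph (-2.25) and the nuclear receptor gene Hr4 (-2.92). sm stood at 1.88, 0.810 and 37.7 TPM in clamp null males, against 83.2, 68.5 and 68.8 TPM in control males, and only clamp null males 4 and 5 were near 0. Without these libraries, sm, Syp and heph no longer passed (-0.94, -1.72 and -0.85, adjusted p = 0.263, 0.143 and 0.347 by limma), whereas Hr4 did (-3.08). In females LManII (-1.71), Hr4 (-1.61) and lqf (-1.54), an endocytic adaptor gene, were lower.

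**Figure D5:**
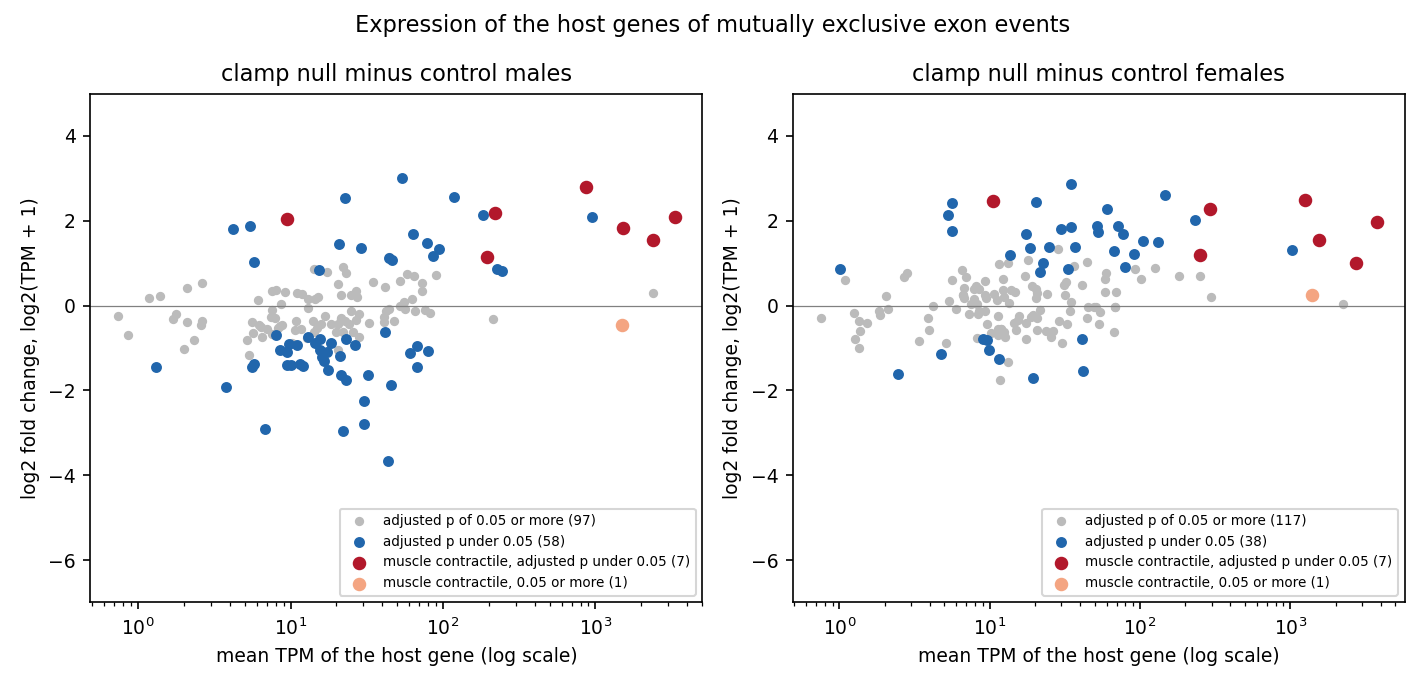
Log2 fold change of clamp null against control on log2(TPM + 1) for the 163 host genes against their mean TPM (log axis), for males (left) and females (right). Filled red points are muscle contractile genes that passed the test, 7 of 8 in each sex, all above 0; in males 39 host genes were lower and in females 9.

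Of 40 listed splicing regulators, 38 had at least 1 TPM. In clamp null males 0 were higher and 25 lower than in control males, and in clamp null females 2 were higher and 13 lower than in control females, by limma with the adjustment over all genes. Over all genes, 11.3% were higher and 45.8% lower in males, and 9.8% and 15.6% in females. The regulator counts come from TPM as deposited, and counts under the median-of-ratios scaling are not given for them. In males that scaling raised the median over the whole gene set from -0.75 to -0.24. It also changed the male host calls from 26 higher and 39 lower to 47 higher and 19 lower. How many of the 25 regulators would remain lower in males was not tested. Without clamp null males 4 and 5, an alternative chosen after seeing the data, 15 regulators were lower in males, against 32.5% of all genes. The polypyrimidine tract-binding protein gene heph was lower in males (-2.25) only with clamp null males 4 and 5, as given above, and mub, of the PCBP family, in males (-1.99) and females (-1.61). ps, the pasilla gene, was higher in females (1.95). Of these names, mub, ps and bru1 were chosen after their values were seen, and most other regulators are given as counts only. bru1 was lower in clamp null males (-3.13, and -2.21 without clamp null males 4 and 5) and higher in control males than in control females (3.50). In control males 5 regulators were higher and 0 lower than in control females, against 23.2% and 1.56% of all genes. The part of the testis sum in these values was not tested.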

How the data were processed

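The study sequenced poly-T selected RNA of whole L3 larvae in 12 libraries, 3 for each sex and genotype. The authors quantified transcripts with Salmon against an earlier release of the same genome and deposited TPM per transcript for each library, scaled to a sum of 1000000 and without a filter. The submitters' processing notes also name FastQC, Trim Galore, cutadapt, Bowtie2 and the dm6 build. TPM keep no read count, so the depth of the libraries is unknown and no counting interval could be given. The spread between libraries was the only measure of error.

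Transcripts were matched to the Ensembl release 115 annotation of BDGP6.54, which held 29926 of 29936 transcripts, in 13771 genes. Events of 7 classes (16215 in all, MXE included) were built from their exons, PSI was computed from TPM, and events with a PSI in at least 2 libraries of each group were kept. In the empirical test, ΔPSI was compared with the 1000 replicate differences closest in log10 TPM. The p-value was 0.5 times the share of larger differences, was adjusted gene by gene after Benjamini and Hochberg, with calls made under 0.05. An added adjustment ran over all events of all classes. limma 3.58.1 in R 4.3.3 was run on PSI, also for the interaction of sex and genotype, and on log2(TPM + 1) with a variance trend, for genes averaging 1 TPM or more, each over all 12 libraries. Fold changes are on this log2(TPM + 1) scale with a pseudocount of 1 TPM, which understates the change of low genes. The remaining steps used Python 3.11.15, numpy 2.4.6, pandas 2.3.3 and matplotlib 3.10.9, and both tests were tested on simulated data.

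The members, gene lists and tests were chosen with earlier results of these data known. Genes were named if on a list and holding an MXE event, or if called without overlap between the groups at 3 TPM or more, at most 12 per direction. Other names are marked as chosen after their values were seen, apart from genes named for their number of events or calls. Alternatives covered the correction, the test, the minimum TPM, missing PSI, strict events, scaling, pseudocount and left-out libraries. The amino acid identity of exon pairs was planned and not run, since no genome sequence was used here.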

Additional observations from a re-analysis of the deposited data

Results flagged for a closer look

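One pair of exons in slo, which encodes a calcium-activated potassium channel, moved in opposite directions in the sexes. At the exon starting at position 24698198 of chromosome arm 3R, PSI was 0 and 0 in clamp null females 4 and 6, against 1 and 1 in control females 1 and 2, a difference of -1.0. It was 1 and 1 in clamp null males 4 and 6, against 0.719, 0 and 0 in control males, a difference of 0.76. Clamp null female 5, clamp null male 5 and control female 3 had no PSI. By the empirical test the difference between the sexes was not tested, while limma gave the interaction an unadjusted p of 0.0025 and an adjusted p of 0.224. The transcripts had a mean of 0.147 TPM.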

How the results depend on the processing

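Of the gene counts under alternatives, 82 stayed within 1.5 times the main count and 41 moved. The 82 include counts of 0 that stayed at 0. Some of these could not rise, as where only strict events or the most abundant event of each gene were kept. They therefore overstate how stable the counts were. Counts from limma on PSI with a replicate block were set against the limma count. With p adjusted over all events, 0 genes were called in clamp null against control females, in clamp null against control males and between the control sexes. With no correction, 16, 10, 4 and 2 genes passed in the female, male, control sex and clamp null sex comparisons, and 19 in the interaction. In the same order, 4.7%, 5.51%, 3.91% and 1.57% of all events (not genes) passed at this level. For the interaction no such share is given. limma on PSI gave 5 genes in males and 3 between the control sexes. With 1 library left out, the counts ranged over 3 to 5 in females, 0 to 3 in males, 0 to 1 between control sexes, 0 to 0 between clamp null sexes and 0 to 5 for the interaction, and for host expression over 29 to 39, 51 to 75, 7 to 18 and 0 to 0 genes. The low of 0 in males came without control male 3 and the high of 3 without control male 1. Without clamp null males 4 and 5, there were 3 genes in males, 1 between clamp null sexes, 6 for the interaction and 10 host genes in expression between clamp null sexes (2 higher and 8 lower), and 15 splicing regulators in expression in males, against 25 with all libraries. The clamp null males are then 1 library. The cause was not tested.

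The library numbers are shared between the sexes within a genotype only. With the number as a replicate block, limma on PSI called 1 gene between control sexes (Actn), 1 between clamp null sexes (GluClalpha) and 1 for the interaction (GluClalpha). Same-numbered libraries had correlations of PSI deviations of 0.018 to 0.035 in controls, where every sample correlated best with its own number, and of -0.021 to 0.009 in clamp null larvae, where this was not so. For log2(TPM + 1) of genes, same-numbered controls had 0.264, -0.061 and 0.146 for numbers 1, 2 and 3. Control male 2 there correlated better with control female 3 (0.098) than with its own number. For clamp null against control, no paired analysis was possible because these groups share no number.

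Of 758 values for single events, 710 stayed on their side of the threshold or within the spread, 23 moved, 15 lost and 10 gained a call, and 0 reversed a call. Depth is unknown, and under 1 TPM a PSI of 0 or 1 can rest on little signal.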
